A study of Mus musculus with 13 samples.

Results

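The genes described here are 9 genes of prostaglandin synthesis, sensing and breakdown: Ptgs1, Ptgs2, Ptges, Ptges2, Ptges3, Hpgds, Ptger4, Hpgd and Ptgr1. They were chosen by name as synthases, degrading enzymes and a receptor, with earlier results of these data known. All 9 were present among the 21950 genes of the bulk table and the 28693 genes of each single-cell matrix. The bulk libraries came from basal cells of the interfollicular epidermis, sorted as CD49f positive and CD34 negative from the abdominal skin of C57BL/6 mice, with 3 libraries per group. The groups were Tbx3 conditional knockout (cKO) mice at gestation day 16 (dpc16), genotype K14creERT2;Tbx3flox/flox; wild type (WT) mice at dpc16; and WT non-pregnant (NP) mice. In the cKO mice the keratin 14 promoter, active in basal keratinocytes, drives a tamoxifen-inducible recombinase that deletes floxed Tbx3, a T-box transcription factor. The labels do not say which part of Tbx3 is deleted, whether the bulk WT mice received tamoxifen, or how old the mice were. The single-cell libraries held whole abdominal epidermis of tamoxifen-treated C57BL/6 mice of genotype Tbx3creERT2; R26H2B EGFP, in which Tbx3-driven recombinase turns on a nuclear label. There was a single library for each of 4 states, namely NP, dpc16, day 6 after birth (dpp6) and day 40 after birth (dpp40).

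Prostaglandins are short-lived lipid signals made from arachidonic acid, which phospholipases release from membranes. The cyclooxygenases Ptgs1 and Ptgs2 turn arachidonic acid into a common precursor, the prostaglandin E synthases Ptges, Ptges2 and Ptges3 turn that precursor into prostaglandin E2, and Hpgds turns it into prostaglandin D2. Prostaglandin E2 acts on keratinocytes through receptors such as Ptger4, which raises cyclic AMP, and is best known in skin from inflammation and wound repair. Hpgd oxidises prostaglandins to inactive keto forms, and Ptgr1 reduces these further, so both work on the side of breakdown.

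The promoters of the 3 genes that passed the test in a bulk comparison are shown here because Hpgd was higher in cKO than in both WT groups, and Ptgs1 and Hpgds were lower in cKO than in NP. The sequences are from RefSeq (GRCm38.p6), given 5′ to 3′ on the gene's own strand, from 250 bases before to 30 bases after the annotated start. Capitals mark a match to any motif searched. Hpgd lies at chr8:56294302-56294581 on the plus strand, Hpgds at chr6:65144701-65144980 on the minus strand and Ptgs1 at chr2:36230176-36230455 on the plus strand.
Hpgd: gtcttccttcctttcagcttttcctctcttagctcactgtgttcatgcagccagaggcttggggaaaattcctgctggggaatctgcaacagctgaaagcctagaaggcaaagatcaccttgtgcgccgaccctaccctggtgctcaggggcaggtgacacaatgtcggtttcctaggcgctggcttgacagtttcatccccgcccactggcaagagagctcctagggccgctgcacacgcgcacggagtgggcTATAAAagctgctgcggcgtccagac
Hpgds: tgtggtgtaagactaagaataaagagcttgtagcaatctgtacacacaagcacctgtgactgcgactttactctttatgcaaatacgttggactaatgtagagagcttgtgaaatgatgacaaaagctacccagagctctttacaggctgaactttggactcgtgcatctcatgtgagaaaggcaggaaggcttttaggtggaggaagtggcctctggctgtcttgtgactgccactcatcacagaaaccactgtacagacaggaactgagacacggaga
Ptgs1: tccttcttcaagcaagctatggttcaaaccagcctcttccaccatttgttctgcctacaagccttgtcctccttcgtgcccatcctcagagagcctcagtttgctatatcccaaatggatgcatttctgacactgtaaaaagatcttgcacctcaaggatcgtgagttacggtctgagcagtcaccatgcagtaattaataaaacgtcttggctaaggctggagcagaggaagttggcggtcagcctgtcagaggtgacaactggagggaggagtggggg
The motifs were searched on both strands in the 300 bases of each RefSeq promoter: the T-box site GGTGTGA, held by 3.98% of 32851 promoters; the cyclic AMP response element TGACGTCA, by 1.79%; the E-box CACGTG, by 7.15%; the TATA box TATAAA, by 13.6%; and the glucocorticoid response element in its palindromic form, by 0.00913%. Among the 9 genes, Hpgd held a TATAAA, which began 4 bases after the RefSeq start used for the window. In the GENCODE annotation of mm10 the gene starts at position 56294585 of chromosome 8, downstream of this match, so its side of the start depends on the annotation. Ptges2 held a CACGTG that began 77 bases before the start, and Ptgs2 one that began 16 bases after it. No other match of these letters was found in the 9 windows.

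Bulk values are FPKM, fragments scaled by transcript length and library size, and summed to between 785636 and 847693 per library. Steps between low values, found in 37 to 96 genes per library, put the depth of the NP libraries at 0.593 to 0.655 of that of WT dpc16 library 1, against 0.782 to 1.31 for the other libraries, so low genes were measured less precisely in NP. Tbx3 stood at 4.81, 1.65 and 4.89 FPKM in cKO, 16.96, 15.29 and 22.98 FPKM in WT dpc16, and 8.96, 6.38 and 8.12 FPKM in NP. Basal keratins were high in every library, with 5822 to 14070 FPKM of Krt5, and Cd34 stayed between 0 and 2.23 FPKM. The summed level of 8 basal keratinocyte markers was 13662 to 21312 FPKM in cKO, 24054 to 25286 FPKM in WT dpc16 and 21732 to 28891 FPKM in NP. Krt5 and Krt14 made up most of this sum. In cKO against WT dpc16 the median log2 change of the 8 was -0.053. Krt5, Krt14 and Col17a1 changed by -0.61, -0.64 and -0.39, and none of them passed. Itga6, Itgb4, Itga3 and Cdh3 changed by -0.056, 0.026, 0.13 and -0.05. Ly6a alone passed, as higher (limma with Benjamini-Hochberg, adjusted p = 0.033). The summed level of 7 spinous markers (Krt1, Krt10 and others of the layer above the basal one) was 3493 to 5037 FPKM in cKO, 5276 to 14408 FPKM in WT dpc16 and 8043 to 9592 FPKM in NP. In cKO against WT dpc16 the median log2 change of the 7 was -0.46. Krt1 alone passed, with a change of -2.51 (limma with Benjamini-Hochberg, adjusted p = 0.0094). Krt10, Mt4, Krtdap, Calm5, Dsg1a and Sbsn changed by -1.46, -0.90, -0.46, -0.44, -0.24 and -0.080, and none of them passed. A list of 9 upper hair follicle markers summed to 1180 to 1978 FPKM in cKO, 555 to 1147 FPKM in WT dpc16 and 1013 to 3747 FPKM in NP, the highest value being NP library 3. A list of 8 Langerhans cell markers summed to 34.6 to 98.1 FPKM in cKO, 34.0 to 46.0 FPKM in WT dpc16 and 61.5 to 76.3 FPKM in NP. Of 7 mast cell markers, 6 were listed at 0 in all 9 libraries.

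Setting cKO against WT at dpc16 addresses how basal cells of pregnant skin differ when keratinocytes lose Tbx3. Hpgd rose in cKO, and it was the 1 of the 9 genes that passed the test in that comparison. It passed among 247 of 11497 genes tested, or 2.15% (141 higher, or 1.23%, and 106 lower, or 0.922%; limma with Benjamini-Hochberg adjustment at 0.05). The other 8 genes did not pass, but 5 of them lay lower in every cKO library than in every WT dpc16 library: Ptgs1, Ptges2, Ptges3, Hpgds and Ptger4. With Hpgd, 6 of 9 genes had groups that did not overlap, beside 26.2% of all genes tested (13.3% higher and 12.9% lower). At an unadjusted p under 0.05, 5 of 9 passed, beside 17.4% of all genes. The 9 were chosen with earlier results of these data known, so these shares describe them and do not test them as a set. The median log2 change was -0.36 over the 9 genes and 0.01 over all genes tested. In WT dpc16 against NP none of the 9 passed the limma test, beside 15 of 11497 genes, or 0.13%. At an unadjusted p under 0.05 Ptger4 passed, beside 9.05% of all genes. Ptger4 was also the 1 gene whose WT dpc16 and NP libraries did not overlap, beside 15.6% of all genes (6.82% in its direction, higher).

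**Figure D1:**
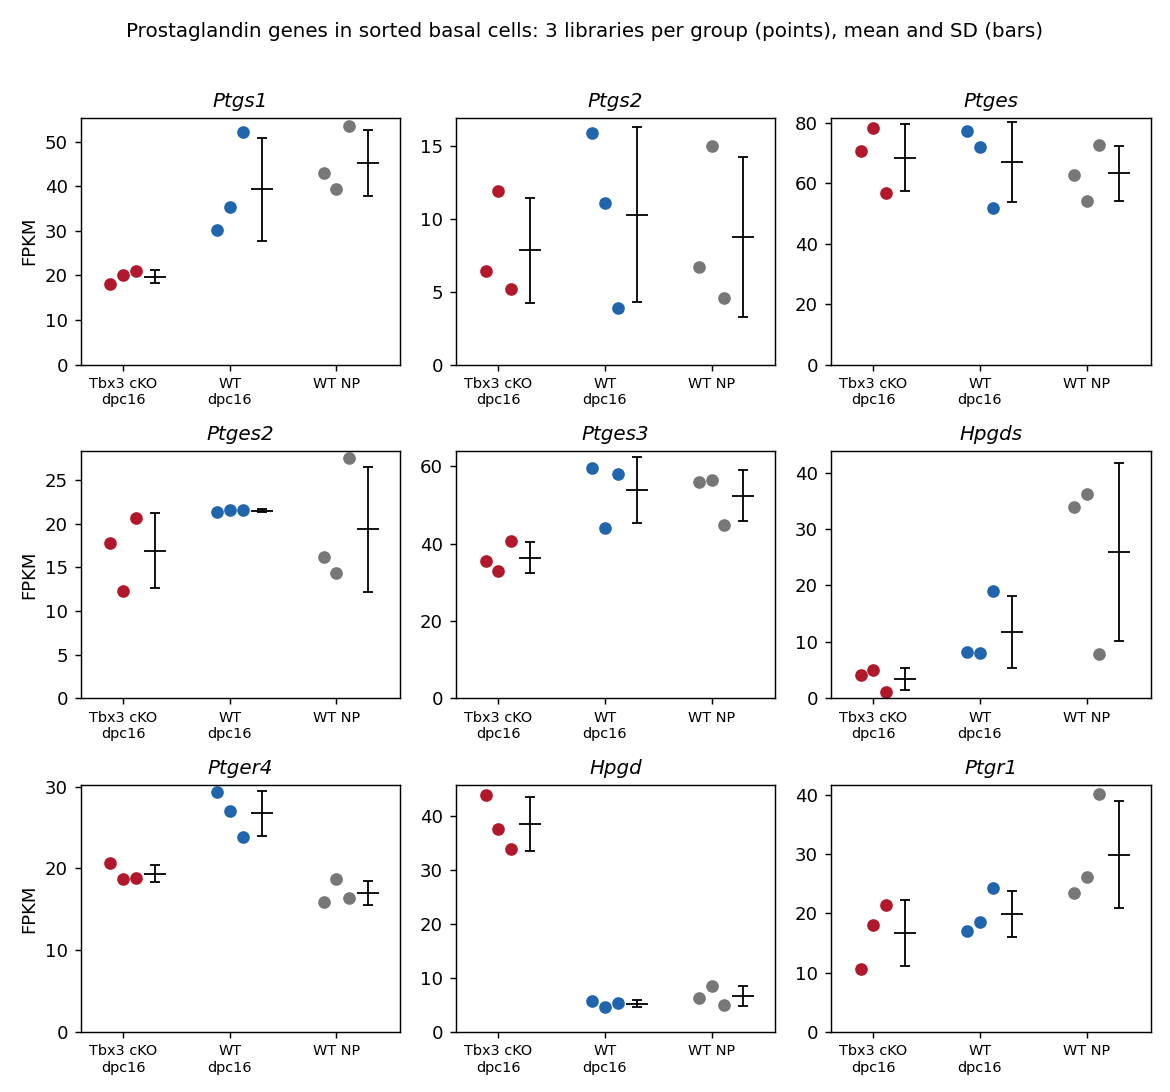
FPKM of the 9 genes (vertical axes, each from 0) in the 3 bulk libraries of each group: Tbx3 cKO dpc16, WT dpc16 and WT NP. Points are libraries, and the bars beside them give the mean and SD. Hpgd is at 33.9 to 43.8 FPKM in cKO, above all 6 other libraries, while Ptges overlaps between all 3 groups.

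Among the cyclooxygenases, Ptgs1, the form that many tissues make constantly, was at 18.1, 20.2 and 20.9 FPKM in cKO. It was at 30.2, 35.4 and 52.2 FPKM in WT dpc16, and at 42.9, 39.3 and 53.6 FPKM in NP. Every cKO library lay below every WT library, whether pregnant or not, and the WT groups overlapped. On the log2(FPKM + 1) scale, which understates changes of low genes, Ptgs1 in cKO against WT dpc16 differed by -0.92 (SE 0.21, 95% interval -1.39 to -0.45). The test was not passed (limma, Benjamini-Hochberg adjusted p = 0.0579; range over 17 alternatives 0.0443 to 0.179). In the secondary contrast of cKO with NP, which differ in both genotype and pregnancy, Ptgs1 fell by 1.15 on the log2 scale (limma with Benjamini-Hochberg, adjusted p = 0.0181). That call was lost without cKO library 1 (adjusted p = 0.0697) and without NP library 3 (adjusted p = 0.0546). In bulk samples, fewer cells of a type and less RNA per cell cannot be told apart. The spinous marker sum was also lowest in the cKO libraries, and its part in the Ptgs1 values was not tested.

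Ptgs2, the form induced by growth factors and inflammation, was at 6.39, 11.9 and 5.18 FPKM in cKO, at 15.8, 11.04 and 3.91 FPKM in WT dpc16, and at 6.65, 14.9 and 4.58 FPKM in NP. The 3 groups overlapped over nearly their whole range, and the largest spread was between libraries of 1 group. The log2 difference of cKO and WT dpc16 was -0.25 with a 95% interval from -1.38 to 0.87, so changes of either direction remain within it.

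Of the prostaglandin E synthases, Ptges, the membrane-bound enzyme usually induced along with Ptgs2, had the highest level per length of the 9 genes in every group. It averaged 68.5 ± 10.96 FPKM in cKO, 66.9 ± 13.3 FPKM in WT dpc16 and 63.2 ± 9.22 FPKM in NP (SD, n = 3 each). Its log2 difference between cKO and WT dpc16 was 0.04 (95% interval -0.40 to 0.48). Ptges3, also known as p23, a co-chaperone of Hsp90 as well as a prostaglandin E synthase, was at 35.6, 32.8 and 40.7 FPKM in cKO, at 59.6, 44.1 and 57.9 FPKM in WT dpc16 and at 56.0, 56.5 and 44.8 FPKM in NP. All 3 cKO libraries lay below the 6 WT libraries, yet the log2 difference of -0.55 from WT dpc16 did not pass (SE 0.17; limma with Benjamini-Hochberg, adjusted p = 0.135). Ptges2, the third enzyme of this step, was at 17.7, 12.2 and 20.7 FPKM in cKO, at 21.3, 21.6 and 21.6 FPKM in WT dpc16 and at 16.2, 14.3 and 27.5 FPKM in NP. The cKO libraries were below the closely spaced WT dpc16 libraries and overlapped with NP, with cKO library 2 the lowest of the 9.

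Hpgds, the glutathione-dependent prostaglandin D2 synthase, first known from blood cells, was at 4.18, 4.93 and 1.15 FPKM in cKO. It was at 8.17, 8.06 and 19.1 FPKM in WT dpc16, and at 33.9, 36.2 and 7.78 FPKM in NP. The cKO libraries were the 3 lowest of the 9, and the WT groups overlapped because NP library 3 stood apart from the other NP libraries. Hpgds in cKO differed from WT dpc16 by -1.55 on the log2 scale (SE 0.59; limma with Benjamini-Hochberg, adjusted p = 0.206), which did not pass. In cKO against NP it fell by 2.48 on the log2 scale (limma with Benjamini-Hochberg, adjusted p = 0.0407), but 11 of 17 alternatives ended that call, with adjusted p between 0.0228 and 0.117 over all 17. The alternatives that ended it included leaving out any cKO library, either of WT dpc16 libraries 1 and 2, or either of NP libraries 1 and 2. Some marker lists moved with these values. The spinous marker sum was lowest in cKO, and upper follicle markers were highest in NP library 3, the NP library with the least Hpgds; their part in the result was not tested. The Langerhans marker sum was 93.0, 98.1 and 34.6 FPKM in cKO libraries 1 to 3, of which H2-Eb1 alone made up 26.9, 55.7 and 0.883 FPKM. In the same library order, the Langerhans sum was 34.0, 46.0 and 45.6 FPKM in WT dpc16. It was 61.5, 76.3 and 70.1 FPKM in NP. None of its 7 tested markers passed in cKO against WT dpc16, and its part in the Hpgds values was not tested.

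Ptger4, a prostaglandin E2 receptor, was at 20.6, 18.7 and 18.8 FPKM in cKO, at 29.4, 27.0 and 23.9 FPKM in WT dpc16 and at 15.9, 18.6 and 16.3 FPKM in NP. The WT dpc16 libraries were the 3 highest, above all cKO and all NP libraries. Neither difference passed: it was -0.44 in cKO against WT dpc16 (SE 0.15; limma with Benjamini-Hochberg, adjusted p = 0.164) and 0.63 in WT dpc16 against NP (SE 0.15; adjusted p = 0.192). These 2 values share the WT dpc16 libraries. In cKO against NP, which do not include them, the log2 difference was 0.18 (95% interval -0.15 to 0.52; limma with Benjamini-Hochberg, adjusted p = 0.504), although every cKO library was just above every NP library.

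Hpgd, the dehydrogenase that starts prostaglandin breakdown, was at 43.8, 37.6 and 33.9 FPKM in cKO. It was at 5.72, 4.52 and 5.34 FPKM in WT dpc16, and at 6.32, 8.50 and 4.89 FPKM in NP. Every cKO library stood far above every WT library, while the WT groups overlapped. The log2 change of cKO against WT dpc16 was 2.67 (SE 0.21, 95% interval 2.201 to 3.133; limma with Benjamini-Hochberg, adjusted p = 0.00086), and against NP it was 2.40 (SE 0.21). Both calls held in all 17 alternatives, with adjusted p up to 0.0106 against WT dpc16, reached without WT dpc16 library 2. In WT dpc16 against NP the log2 difference was -0.27 (95% interval -0.73 to 0.20; adjusted p = 0.763), so a change with pregnancy was not detected. Marker lists of other cell types moved with the group. The sum of the 9 upper follicle markers was higher in every cKO than in every WT dpc16 library, with none of the 9 passing the limma test. Sostdc1, a member that also led the Hpgd-rich clusters 8 and 9 described with the single cells, was at 14.4, 25.7 and 44.1 FPKM in cKO, at 49.7, 45.5 and 35.1 FPKM in WT dpc16 and at 67.0, 92.2 and 142 FPKM in NP. Fst, the other member raised in both clusters and among the leading genes of cluster 8, went the other way. It was at 72.0, 64.8 and 64.7 FPKM in cKO and at 34.5, 40.7 and 24.3 FPKM in WT dpc16. In NP, Fst was at 35.8, 26.3 and 79.1 FPKM. A list of 6 smooth muscle and pericyte markers summed to 22.4 to 45.7 FPKM in cKO, 5.20 to 7.14 FPKM in WT dpc16 and 13.4 to 20.2 FPKM in NP. Of its 3 tested members 1 passed in cKO against WT dpc16, beside 2.15% of all genes. It was Mcam, an adhesion molecule, at 26.0, 44.1 and 19.6 FPKM in cKO, against 4.88, 2.99 and 4.43 FPKM in WT dpc16. The other 5 (Acta2, Tagln, Rgs5, Mylk and Myh11) were at no more than 1.86 FPKM in any cKO library and no more than 1.25 FPKM in any WT dpc16 library. The part of these cell types, and of Langerhans cells, in the Hpgd values was not tested.

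Ptgr1, the reductase that acts on the keto products of Hpgd, was at 10.6, 18.0 and 21.3 FPKM in cKO, at 16.9, 18.5 and 24.3 FPKM in WT dpc16 and at 23.3, 26.2 and 40.2 FPKM in NP. The cKO and WT dpc16 groups overlapped, with a log2 difference of -0.28 (95% interval -0.91 to 0.35). In cKO against NP the groups did not overlap, and the log2 difference of -0.82 did not pass (SE 0.28; limma with Benjamini-Hochberg, adjusted p = 0.115). In that secondary contrast, 3 of the 9 genes passed (Hpgd higher, Ptgs1 and Hpgds lower), beside 651 of 11497 genes, or 5.66% (2.76% higher and 2.91% lower). The libraries of 6 of the 9 did not overlap, beside 26.4% of all genes. Ranked by mean FPKM per length, the order in WT dpc16 was Ptges, Ptges3, Ptgs1, Ptger4, Ptges2, Ptgr1, Hpgds, Ptgs2 and Hpgd, where Hpgd was last at 5.19 ± 0.61 FPKM (SD, n = 3). In cKO Hpgd stood second, at 38.4 ± 4.99 FPKM (SD, n = 3), after Ptges and next to Ptges3 at 36.4 ± 3.98 FPKM (SD, n = 3), from which it did not differ beyond the spread of libraries.

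**Figure D2:**
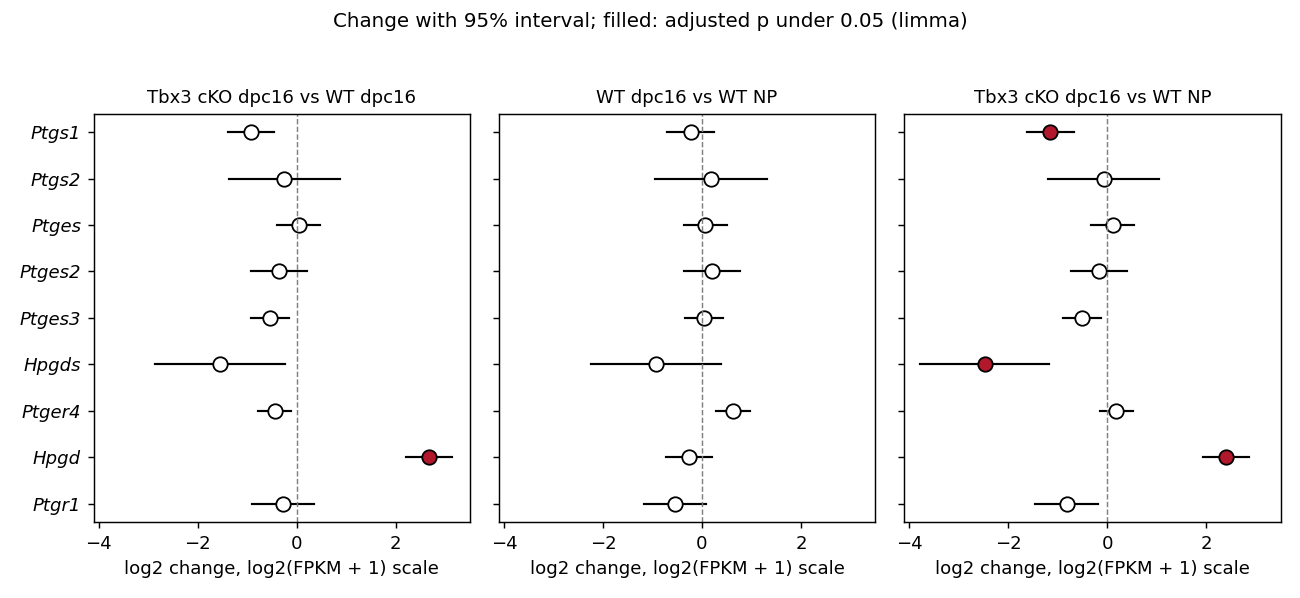
Log2 change (horizontal axis, on the log2(FPKM + 1) scale) of the 9 genes with its 95% interval in each of the 3 comparisons, from limma; filled points passed the adjusted threshold of 0.05. Hpgd is the 1 filled point in cKO against WT dpc16, no point is filled in WT dpc16 against NP, and Hpgd, Ptgs1 and Hpgds are filled in cKO against NP. The 3 panels share libraries.

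Genes upstream and beside the 9 were read from 4 lists. Of 14 phospholipases that can release arachidonic acid, 7 were tested. Of these, 1 passed as higher and none as lower in cKO against WT dpc16, beside 1.23% and 0.922% of all genes tested. The median log2 change was 0.21. At an unadjusted p under 0.05, 4 of the 7 passed in that comparison, beside 17.4% of all genes. Pla2g4e and Pla2g6 were higher, and Pla2g4b and Pla2g4f lower. Pla2g4e, a cytosolic phospholipase A2 known to work mainly as an acyltransferase, was at 6.48, 5.83 and 3.37 FPKM in cKO, at 0.261, 0.736 and 0.549 FPKM in WT dpc16 and at 0, 0.213 and 0.757 FPKM in NP. It rose in cKO by 2.01 on the log2 scale against WT dpc16 (limma with Benjamini-Hochberg, adjusted p = 0.0172) and by 2.24 against NP (adjusted p = 0.00877). Its relative Pla2g4f was at 3.13, 16.3 and 11.4 FPKM in cKO and at 24.6, 33.6 and 37.9 FPKM in WT dpc16, which did not pass (log2 difference -1.76; limma with Benjamini-Hochberg, adjusted p = 0.068). Pla2g6, a calcium-independent phospholipase, was at 9.40, 7.20 and 4.63 FPKM in cKO and at 2.63, 3.55 and 2.43 FPKM in WT dpc16, which did not pass either (adjusted p = 0.0744). Pla2g4b fell in cKO against NP by 1.49 on the log2 scale (limma with Benjamini-Hochberg, adjusted p = 0.0476), with 1.35 ± 0.49 FPKM in cKO and 5.92 ± 3.12 FPKM in NP (SD, n = 3 each).

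Of 12 other prostanoid synthases and reductases, 11 were in the table, 8 were tested and none passed in any comparison by limma. At an unadjusted p under 0.05, 3 of the 8 passed in cKO against WT dpc16 (Akr1b8, Cbr1 and Fam213b), beside 17.4% of all genes, and 2 in WT dpc16 against NP (Akr1c18 and Cbr1), beside 9.05%. Akr1c18, a steroid dehydrogenase that also acts on prostaglandins, had the largest difference of this list. It was at 70.3, 58.9 and 41.5 FPKM in WT dpc16 and at 4.69, 3.64 and 16.7 FPKM in NP, without overlap, but the log2 difference of 2.87 did not pass (limma, Benjamini-Hochberg adjusted p = 0.192). Cbr1, a carbonyl reductase that can convert prostaglandin E2, was at 25.7, 26.7 and 25.6 FPKM in WT dpc16 and at 38.4, 41.0 and 50.5 FPKM in NP, and did not pass (log2 difference -0.71; adjusted p = 0.176). Akr1b8, an aldose reductase family member, was at 15.6, 19.5 and 13.7 FPKM in cKO and at 9.69, 8.11 and 13.3 FPKM in WT dpc16 (adjusted p = 0.159).

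Of 10 receptors and transporters, 3 were tested and none passed by limma, while Ptgdr and Slco2a1 had an unadjusted p under 0.05 in cKO against WT dpc16 (17.4% of all genes). Slco2a1, the prostaglandin uptake carrier that feeds Hpgd, was at 67.7, 79.4 and 65.1 FPKM in cKO and at 59.9, 55.3 and 44.8 FPKM in WT dpc16, without overlap (log2 difference 0.40; limma with Benjamini-Hochberg, adjusted p = 0.236). Ptgdr, a prostaglandin D2 receptor, was at 2.198, 1.117 and 1.840 FPKM in cKO and at 0.445, 0.609 and 0.641 FPKM in WT dpc16 (adjusted p = 0.225). Abcc4, an exporter of prostaglandins, had overlapping groups (adjusted p = 0.462). The other prostaglandin E2 receptors were low, with at most 0.925 FPKM of Ptger1, 0.233 FPKM of Ptger2 and 0.466 FPKM of Ptger3 in any library, and were not tested. Of 12 lipoxygenase and leukotriene genes, 7 were tested, and 1 passed in cKO against NP, beside 5.66% of all genes. Aloxe3, a lipoxygenase of the skin barrier, was at 18.9, 22.1 and 12.1 FPKM in cKO, at 6.91, 4.48 and 2.11 FPKM in WT dpc16 and at 1.68, 7.41 and 2.14 FPKM in NP. It rose in cKO against NP by 2.14 on the log2 scale (limma with Benjamini-Hochberg, adjusted p = 0.0307) and did not pass against WT dpc16 (log2 difference 1.83; adjusted p = 0.0744). Lta4h and Ggt5, which act on leukotrienes, had adjusted p of 0.373 and 0.488 in cKO against WT dpc16.

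The genes whose log2(FPKM + 1) values were most like a called gene over the 9 libraries were listed as a description, among 9234 genes averaging 5 FPKM or more. The points share 3 groups, so a high r includes the differences between groups. For Hpgd they were Ctsh (Pearson r = 0.987), Dst (0.985), Acpp (0.980), Tmem64 and Ahcyl1 (0.974). Ctsh, a lysosomal protease, was at 208 to 233 FPKM in cKO, 90.0 to 107 FPKM in WT dpc16 and 105 to 125 FPKM in NP. For Ptgs1 they included Gcat (0.971), Fam25c (0.970), Mrpl13 and Sec61b. For Hpgds they were Nasp (0.953), Tmprss4 (0.939), Wdr82, Fam83b and Trp53inp2.

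The single-cell files held 37686 barcodes, of which 36927 passed the filters here, beside 36912 cells stated for the study. Each library shared 70 to 147 barcodes with another, at most 1.74% of the smaller library's cells, and no doublet caller was run. Median depth was 4709 UMI per cell in NP, 4448 in dpc16, 5014 in dpp6 and 5638 in dpp40. Levels are given as CPM, the UMI of a gene scaled to the same total of UMI in every group of cells, with exact Poisson intervals that cover counting error only, and with 1 library per state no difference between states was tested. The cells fell into 22 clusters of at least 50 cells, built without the 9 genes and the listed pathway genes and named from marker lists, so names are rebuilt and not the study's. Clusters 0, 10 and 15 were spinous-like (15 led by Ovol1, Fosl1 and Hbegf), 17 was granular-like, 3 and 6 were basal keratinocyte-like, 2 and 12 bulge and outer root sheath-like, and 4, 7 and 13 upper hair follicle-like. Cluster 3 was led by the stress-response genes Fosl1 and Krt16 and by the growth factor Epgn. Clusters 11 and 19 were cycling-like, 18 was sebaceous gland-like, 20 Langerhans cell-like and 21 T cell-like. Clusters 1, 5, 8, 9, 14 and 16 kept no name. Clusters 1 and 5 were rich in Krt5 and Krt14 but had Tgm3 among their leading genes, with 2122 of the 2289 cells of cluster 5 from dpc16, and 8 and 9 were led by Ccl2, Ccl7 and Sostdc1.

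**Figure D3:**
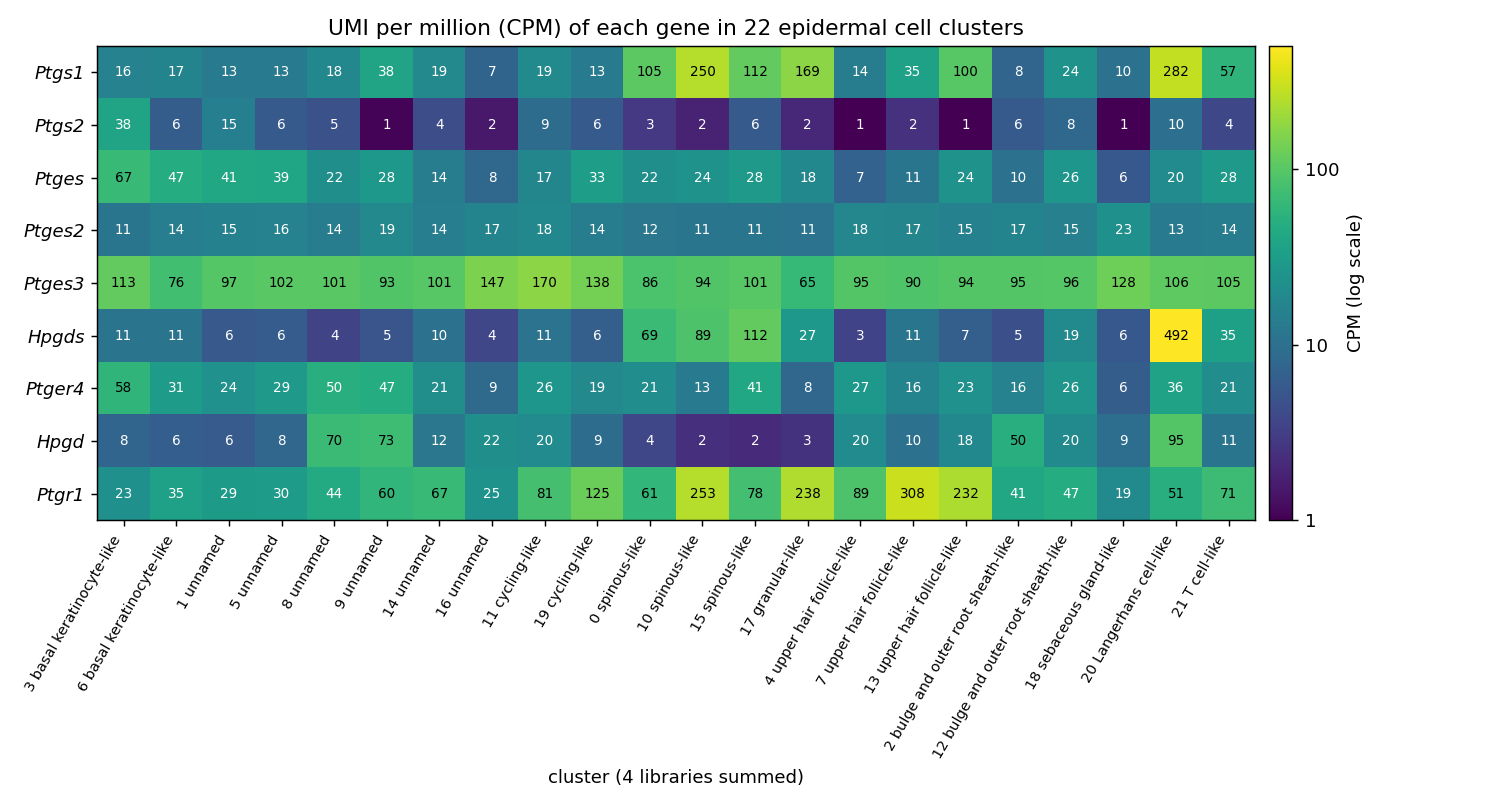
CPM of the 9 genes (rows) in 22 cell clusters (columns), with the 4 libraries summed; the number is the CPM and the colour scale is logarithmic. Hpgds is highest in Langerhans cell-like cluster 20 (492 CPM), then in the spinous-like clusters (69 to 112 CPM), while Hpgd is at 2 to 4 CPM in the spinous-like clusters and highest in clusters 20, 9, 8 and 2.

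The cyclooxygenase Ptgs1 and the synthase Hpgds shared 2 high compartments, the Langerhans cell-like cluster and the cells above the basal layer. Hpgds stood at 492 CPM in cluster 20 (95% interval 470 to 515), at 112, 88.6 and 68.9 CPM in the spinous-like clusters 15, 10 and 0, and at 27.3 CPM in granular-like cluster 17. In basal keratinocyte-like clusters 3 and 6 it was at 11 CPM each. Ptgs1 stood at 282 CPM in cluster 20 (265 to 299), at 250 CPM in cluster 10, 169 CPM in cluster 17, 112 CPM in cluster 15 and 105 CPM in cluster 0. Upper hair follicle-like cluster 13 also held 100.1 CPM of Ptgs1 but 6.56 CPM of Hpgds. Across the 22 clusters the Pearson r of their log2(CPM + 1) values was 0.84, a description of clusters that share libraries and depth.

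After each cell was thinned to 2000 UMI, which left out no cell, 60.3% of cluster 20 cells had an Hpgds UMI (exact 95% interval 56.2 to 64.3; 87.0% unthinned, median depth 4947 UMI). In spinous-like cluster 15 the thinned share was 17.6% (15.2 to 20.2; 44.6% unthinned, median depth 8198 UMI). The sebaceous gland-like cluster 18, among the lowest for Hpgds and taken here as the background, had 0.767% (0.282 to 1.66; 2.30% unthinned, median depth 6486 UMI). Shares at that level were read as background. Cluster 20 held 0.0361 Hpgds UMI per UMI of Cd74, an abundant Langerhans cell gene. Spinous-like clusters 0, 10 and 15 held 3.03, 3.98 and 6.94 Hpgds UMI per Cd74 UMI. The part of free RNA in these levels was not tested, since no profile of empty droplets was used here.

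Hpgd was high in other clusters than Hpgds, apart from cluster 20. Over the 22 clusters its r was -0.23 with both Hpgds and Ptgs1, and the Krt5-rich clusters were low for Hpgd and Hpgds alike. Hpgd stood at 94.9 CPM in Langerhans cell-like cluster 20 (95% interval 85.4 to 105), at 73.4 and 70.0 CPM in clusters 9 and 8, and at 50.3 CPM in bulge and outer root sheath-like cluster 2 (46.3 to 54.5). It was at 6 to 8 CPM in the Krt5-rich clusters 1, 3, 5 and 6, and at 2.09 CPM in spinous-like cluster 15 (1.26 to 3.27). Averaged over libraries with equal weight, clusters 20, 9, 8 and 2 kept that order, at 95.5 ± 15.1, 73.4 ± 6.96, 70.7 ± 12.8 and 49.8 ± 7.44 CPM (SD, n = 4 libraries of different states). Clusters 9 and 8 did not differ beyond that spread, nor did the next 5, from cluster 16 at 23.8 ± 7.44 CPM (n = 3 libraries) to cluster 13 at 17.8 ± 4.32 CPM. The thinned share of cells with an Hpgd UMI was 19.9% in cluster 20, 13.4% in cluster 9, 12.7% in cluster 8 and 8.67% in cluster 2, against 0.593% in spinous-like cluster 10 (unthinned 43.2%, 27.1%, 25.9% and 15.1%, against 3.09%; median depth 4947, 4170, 4515 and 3623 UMI, against 13290 UMI). Tbx3, the gene deleted in the bulk cKO, was low in every cluster, from 1.32 CPM in cluster 16 to 13.9 CPM in spinous-like cluster 0. Its counts were small, with 7 UMI in cluster 16 and 14 UMI in cluster 20. The r of Tbx3 with Hpgd over the 22 clusters was -0.40, a description of clusters that share libraries. A link between the levels of Tbx3 and Hpgd was not tested.

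Ptgs2, Ptges and Ptger4 had their highest level in basal keratinocyte-like cluster 3. Ptgs2 reached 37.7 CPM there (95% interval 34.8 to 40.8), next 14.8 CPM in cluster 1, and was at 0.656 CPM in upper hair follicle-like cluster 13. Ptges was at 67.3 CPM in cluster 3 (63.3 to 71.4), at 46.7, 41.3 and 39.0 CPM in clusters 6, 1 and 5, and at 5.52 CPM in sebaceous gland-like cluster 18. Ptger4 was at 57.9 CPM in cluster 3 (54.3 to 61.7), at 49.5 and 47.5 CPM in clusters 8 and 9, at 41.3 CPM in spinous-like cluster 15, and at 6.25 CPM in cluster 18. Averaged over libraries with equal weight, Ptger4 was at 58.6 ± 16.2 CPM in cluster 3 and 49.2 ± 4.13 CPM in cluster 8 (SD, n = 4 libraries of different states), which did not differ beyond that spread. Over the clusters, the r of Ptgs2 with Ptges was 0.63 and with Ptger4 0.52. The leading genes of cluster 3 include ones known to respond to cell stress, and the skin was dissociated with trypsin; the part of dissociation in these values was not tested.

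The remaining genes were broad or set apart by layer. Ptges3 was found in every cluster, from 64.8 CPM in granular-like cluster 17 to 170 CPM in cycling-like cluster 11 (95% interval 163 to 178). Ptges2 ranged from 10.6 to 22.8 CPM, the narrowest range of the 9 genes as a ratio. Ptgr1 was highest in upper hair follicle-like cluster 7, at 308 CPM (298 to 318), then in spinous-like cluster 10 at 253 CPM, granular-like cluster 17 at 238 CPM and upper hair follicle-like cluster 13 at 232 CPM. Ptgr1 was at 22.9 CPM in basal keratinocyte-like cluster 3.

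Between the 4 states, Hpgds showed the most regular pattern of the 9 genes. Over all kept cells it was at 35.4 CPM in NP, 20.5 in dpc16, 42.7 in dpp6 and 51.2 in dpp40, with counting intervals that did not overlap (dpc16 19.5 to 21.6). In spinous-like cluster 0 it was at 66.8, 33.2, 130 and 125 CPM in that order of states, in cluster 10 at 73.7, 38.6, 92.3 and 134 CPM, in cluster 15 at 102, 47.7, 141 and 172 CPM, and in Langerhans cell-like cluster 20 at 513, 379, 624 and 441 CPM. The dpc16 library was the lowest of the 4 in 18 of the 19 clusters that all libraries held. Of 7133 genes with at least 10 CPM over all cells, 30, or 0.421%, were lowest in dpc16 in as many clusters. Clusters of 1 library share its free RNA, so they are not independent, and with 1 library per state the library and the state cannot be told apart. In bulk, all 3 WT dpc16 libraries were below NP libraries 1 and 2 for Hpgds, and none was below NP library 3.

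**Figure D4:**
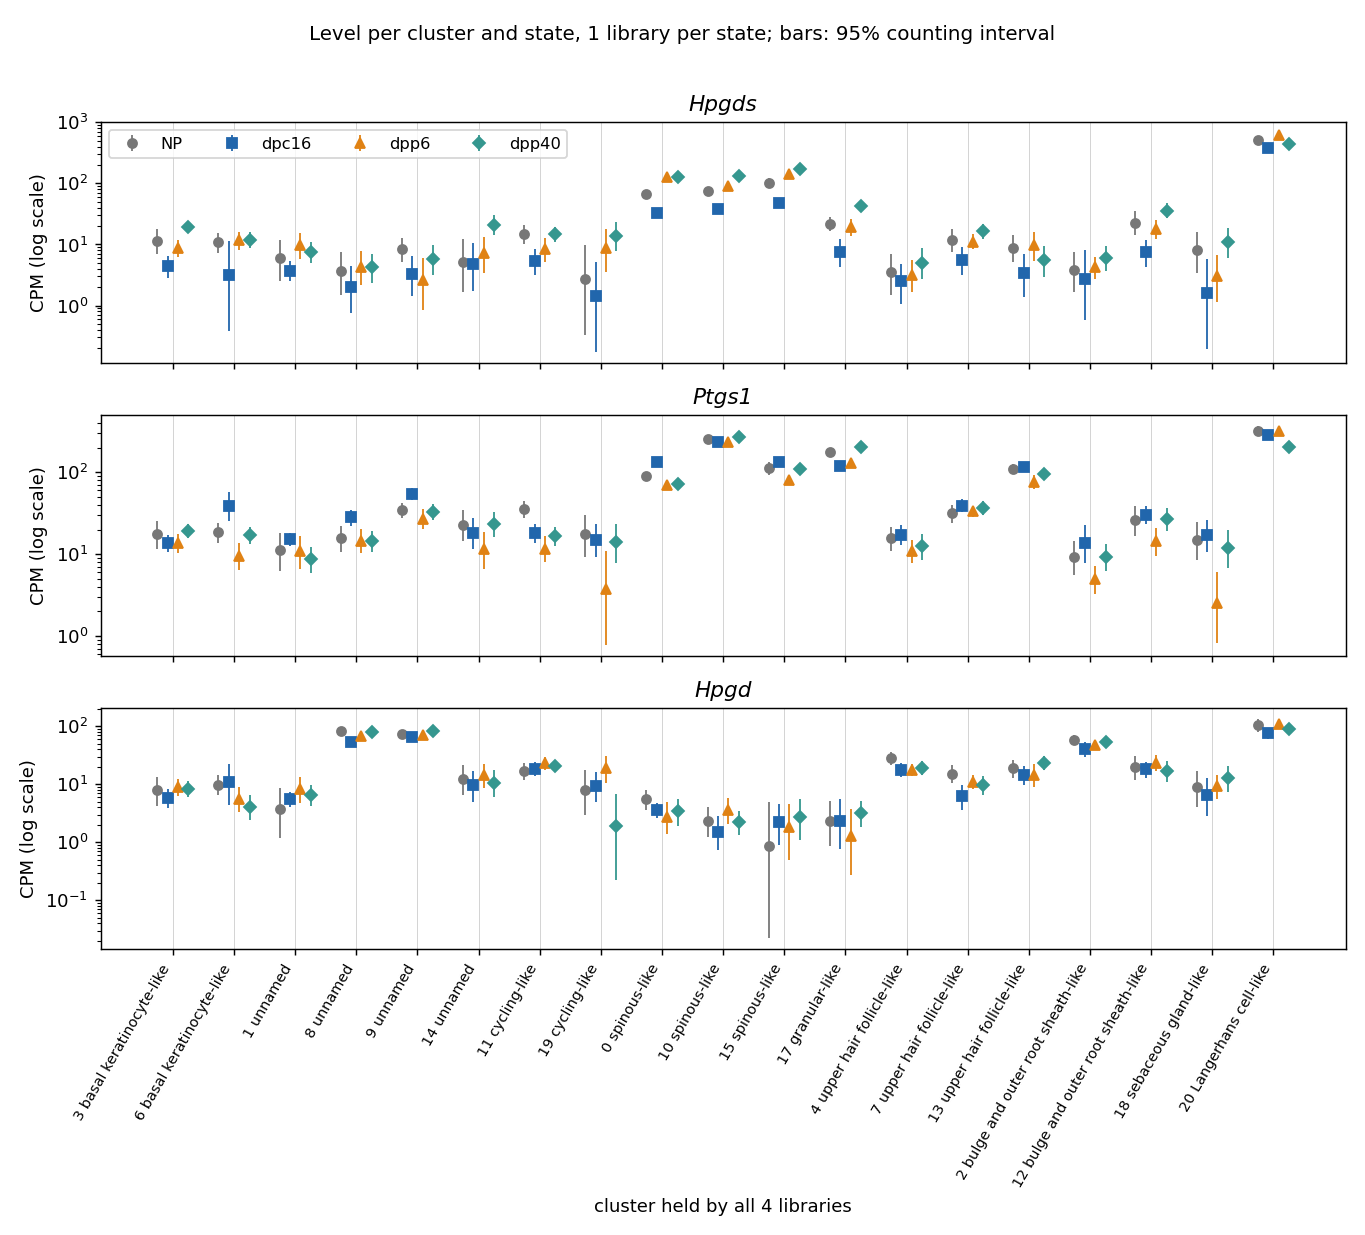
CPM (logarithmic axis) of Hpgds, Ptgs1 and Hpgd in the 19 clusters held by all 4 libraries, for NP, dpc16, dpp6 and dpp40 in that order; bars are 95% counting intervals, with 1 library per state. For Hpgds the dpc16 point is the lowest in 18 of 19 clusters, and for Ptgs1 the dpp6 point is the lowest in 13 of 19.

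Hpgd was at 21.7 CPM in NP, 12.3 in dpc16, 21.1 in dpp6 and 18.7 in dpp40 over all cells. Within clusters the gap was smaller: in cluster 8 it was at 81.5, 53.5, 68.7 and 79.1 CPM, in cluster 9 at 74.4, 65.3, 71.7 and 82.1 CPM, and in cluster 2 at 58.0, 40.5, 47.9 and 52.7 CPM. The dpc16 library was lowest in 11 of 19 clusters, as it was for 11.7% of the 7133 genes. Of the 12853 dpc16 cells, 282 were in Hpgd-rich cluster 2, against 521 of 6491 in NP, 1401 of 9031 in dpp6 and 657 of 8552 in dpp40. Hpgd-rich clusters 8 and 9 held 672 and 560 dpc16 cells. They held 396 and 532 cells of NP, 448 and 352 of dpp6, and 607 and 421 of dpp40. The Hpgd-poor clusters 1 and 5 held 1894 and 2122 dpc16 cells. They held 289 and 44 cells of NP, 380 and 109 of dpp6, and 668 and 14 of dpp40. The part of these cell numbers in the Hpgd levels was not tested. Ptgs1 was at 80.5 CPM in NP, 74.3 in dpc16, 51.0 in dpp6 and 81.0 in dpp40, and the dpp6 library was lowest in 13 of 19 clusters, as for 1.94% of genes. Ptges3 was at 83.0, 111, 101 and 97.6 CPM in that order of states, with NP lowest in 16 of 19 clusters, as for 0.869% of genes.

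Ptgs2 was at 5.51, 8.25, 5.74 and 7.05 CPM in NP, dpc16, dpp6 and dpp40, but in cluster 3, its main site, NP was highest at 68.9 CPM, against 29.4, 30.5 and 42.0 CPM in the later states. Ptger4 was at 22.2, 24.9, 29.5 and 26.7 CPM over all cells, and in cluster 3 it reached 80.1 CPM in dpp6. Ptges ranged from 22.4 CPM in dpp6 to 29.3 CPM in dpp40, Ptges2 from 13.8 CPM in dpc16 to 15.2 CPM in dpp6, and Ptgr1 from 82.1 CPM in dpc16 to 119 CPM in dpp40. For Ptges2 the counting intervals of the 4 libraries overlapped.

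Other pathway genes filled in the map of cell clusters. Alox5, Alox5ap and Ltc4s, which make leukotrienes in immune cells, were at 78.9, 482 and 578 CPM in Langerhans cell-like cluster 20 and at no more than 0.525, 3.88 and 4.55 CPM in any other cluster. Slco2a1 was at 142 CPM in basal keratinocyte-like cluster 6, 125 CPM in cluster 5, 124 CPM in cluster 3 and 114 CPM in cluster 1, and at 11.8 CPM in granular-like cluster 17. Akr1c18 was at 2953 CPM in sebaceous gland-like cluster 18 and 724 CPM in upper hair follicle-like cluster 4. Fam213b, a prostaglandin F2 alpha synthase, followed the layers from 96.3 CPM in basal keratinocyte-like cluster 3 to 549 CPM in granular-like cluster 17, and the barrier lipoxygenases Alox12b and Aloxe3 were at 197 and 109 CPM in cluster 17 against 4.99 and 11.51 CPM in the next highest cluster of each. Ptger3 was at 14.9 CPM in cluster 20 and 10.7 CPM in T cell-like cluster 21, and below 1 CPM elsewhere. Pla2g4e, which rose in the bulk cKO libraries, was at no more than 0.525 CPM in any cluster (4 UMI in cluster 13).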

How the data were processed

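The 9 bulk libraries were deposited by the authors as FPKM per gene; the 4 single-cell libraries were deposited as UMI counts per gene and cell barcode. Cell Ranger 2.2.0, Cufflinks 2.2.1, Cuffdiff, TopHat2, cutadapt 1.14 and build mm10 are listed in the submitters' processing notes; strand setting and scaling are not stated there. Bulk columns named for WT without a state were taken as dpc16 because the NP and cKO columns are named; libraries are numbered in column order. Nothing says that libraries came from separate mice, so p-values measure only how much these libraries vary, possibly for technical reasons.

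The bulk test was limma 3.58.1 (R 4.3.3) on log2(FPKM + 1), for the 11497 of 21950 genes averaging 1 FPKM or more, with a mean per group over all 9 libraries, a trend in the prior variance, two-sided tests and Benjamini-Hochberg adjustment at 0.05. In simulated data for cKO against WT dpc16 (11497 genes), 88% of 100 genes changed by a log2 of 2 and 96% of 100 changed by 3 were recovered, with 12 false calls. Changes smaller than 2 were not simulated, so these rates do not cover the smaller differences that did not pass. FPKM gave relative depth only. Barcodes under 200 genes or over 10% mitochondrial UMI were dropped, and the rest were clustered with scanpy 1.11.5 and leidenalg 0.10.2 (2000 variable genes, 30 components, 15 neighbours, resolution 1). No doublet caller was run and no doublets were removed. Poisson and binomial intervals are exact and cover counting error only.

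The members and lists were chosen with earlier results of these data known. Pathway genes named were the 3 tested genes of each list with the smallest p in the planned comparisons, and any that passed. Of the 5 genes most like each called member, 1 is not reported here. Alternatives changed the pseudocount, filter, normalization (quantile or equal medians), trend, libraries in the fit, replicate block, cell filters and cluster resolution.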

Additional observations from a re-analysis of the deposited data

How the results depend on the processing

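Higher Hpgd in cKO held in all 17 alternatives against either WT group, with a log2 change of 2.57 to 2.86 against WT dpc16. Ptgs1 against WT dpc16 passed with a filter of 5 FPKM (adjusted p = 0.0496, limma) and with a replicate block (0.0443), and Ptgr1 in cKO against NP passed with the block (0.0429). The cause was not tested. The numbers were not taken to pair libraries. Deviations of same-numbered libraries correlated by 0.069 to 0.36 for cKO and WT dpc16. The correlations were -0.074 to 0.039 for cKO and NP, and -0.21 to -0.067 for WT dpc16 and NP. What the positive values for cKO and WT dpc16 come from was not tested. The block gave 10 genes called in WT dpc16 against NP, 202 in cKO against WT dpc16 and 553 in cKO against NP, beside 15, 247 and 651 without it. Without the FPKM filter, which adds genes to the adjustment (16833 tested), the counts were 9, 87 and 314. Without the trend they were 160 in cKO against WT dpc16 and 427 in cKO against NP, and with the 6 libraries of each contrast alone 118 and 167. Leaving out each library gave 5 to 15, 41 to 406 and 118 to 736, lowest without NP library 3, WT dpc16 library 2 and cKO library 1 in that order of comparisons.

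Leaving out 1 library also turned the direction of differences that had not passed. For Ptgs2 the log2 range was -0.76 to 0.13 in cKO against WT dpc16, -0.19 to 0.69 in WT dpc16 against NP and -0.40 to 0.36 in cKO against NP. For Ptges it was -0.13 to 0.17 in cKO against WT dpc16 and -0.039 to 0.24 in WT dpc16 against NP. It was -0.34 to 0.11 for Ptges2 in cKO against NP and -0.074 to 0.17 for Ptges3 in WT dpc16 against NP. Among the 9 genes the SE of the log2 change was largest for Hpgds (0.59) and Ptgs2 (0.51). Of the single-cell levels recomputed with other cell filters or resolution, 99 stayed within their counting interval and 20 moved beyond it.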
